A study of Rattus norvegicus with 4 samples.

Results

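The p53 pathway and GADD45 genes described here are 9 rat genes: Mdm2, Cdkn1a, Btg2, Ccng1, Gadd45a, Gadd45b, Gadd45g, Sesn2 and Tp53inp1. Every gene probe whose accession matched the symbol of a listed gene was taken, which gave 10 probes, 2 for Cdkn1a and 1 for each of the others, out of 21109 probes of 16581 named genes. The signals come from NR8383, a rat alveolar macrophage line that was started from lung lavage of a normal rat and was used after 20 passages. All 4 cultures (replicates 1 to 4) belong to 1 group, NM105, that is, cells given TiO2 of the NM105 type (P25, a mixture of anatase and rutile crystals) at 3 cm2 of particle surface per cm2 for 4 h. Untreated cultures, the study's controls, were not analysed here, so no value below is a response to the particles. Each culture gave 1 one-colour Agilent array, and the 4 arrays lay on 1 slide. The design text calls the cultures biological replicates without saying how they were kept apart, so part of the spread between them may be technical.

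The p53 protein is a transcription factor that cells stabilise when their DNA is damaged. It switches on genes that stop the cell cycle, aid repair or start cell death, and it also switches on its own inhibitor Mdm2, which closes a feedback loop. The GADD45 genes (growth arrest and DNA damage inducible) form a family of small stress proteins that bind cell cycle proteins and the kinase MAP3K4. Gadd45a is a known p53 target, while Gadd45b and Gadd45g answer mainly to other signals, among them NF-kB and cytokines. In alveolar macrophages, which take up inhaled particles, these genes are read as signs of genotoxic and oxidative stress.

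RefSeq promoter windows on the GRCr8 assembly, from 250 bases before to 50 bases after a gene's start, were found for 8 of the 9 genes. The first window listed for each of these genes was used, and any other start was not searched. Those of Cdkn1a and Ccng1 are shown because each holds a pair of adjacent p53 decamers with 1 mismatch. Those of the 3 GADD45 genes are shown because these relatives were detected on different numbers of arrays. A link between motifs and signals was not tested. Capitals mark matches to any of the motifs searched on both strands, which were the p53 decamer and its adjacent pairs, the box CCAAT, the promoter element TATAAA, the cAMP response element TGACGTCA, the E-box CACGTG and the octamer ATTTGCAT. The windows lie at chr20:7150682-7150981 on the plus strand (Cdkn1a), and on the minus strand at chr10:25684827-25685126 (Ccng1), chr4:97486750-97487049 (Gadd45a), chr7:9430669-9430968 (Gadd45b) and chr17:13530302-13530601 (Gadd45g).
Cdkn1a: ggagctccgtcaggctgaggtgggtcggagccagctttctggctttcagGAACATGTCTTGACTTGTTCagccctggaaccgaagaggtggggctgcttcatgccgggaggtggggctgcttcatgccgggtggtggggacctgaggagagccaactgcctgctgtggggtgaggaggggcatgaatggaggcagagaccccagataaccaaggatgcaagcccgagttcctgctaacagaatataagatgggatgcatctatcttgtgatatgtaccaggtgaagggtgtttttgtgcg
Ccng1: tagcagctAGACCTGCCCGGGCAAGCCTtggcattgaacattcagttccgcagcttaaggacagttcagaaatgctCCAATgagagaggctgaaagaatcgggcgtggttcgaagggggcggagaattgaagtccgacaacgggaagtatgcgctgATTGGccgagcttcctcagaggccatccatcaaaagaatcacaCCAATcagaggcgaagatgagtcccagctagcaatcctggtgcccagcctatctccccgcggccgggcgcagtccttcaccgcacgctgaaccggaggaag
Gadd45a: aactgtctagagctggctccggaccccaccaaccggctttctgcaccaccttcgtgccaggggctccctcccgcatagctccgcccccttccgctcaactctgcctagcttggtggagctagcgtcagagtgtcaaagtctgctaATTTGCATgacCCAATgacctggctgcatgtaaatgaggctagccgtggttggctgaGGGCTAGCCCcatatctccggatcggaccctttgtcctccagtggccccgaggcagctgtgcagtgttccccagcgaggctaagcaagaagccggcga
Gadd45b: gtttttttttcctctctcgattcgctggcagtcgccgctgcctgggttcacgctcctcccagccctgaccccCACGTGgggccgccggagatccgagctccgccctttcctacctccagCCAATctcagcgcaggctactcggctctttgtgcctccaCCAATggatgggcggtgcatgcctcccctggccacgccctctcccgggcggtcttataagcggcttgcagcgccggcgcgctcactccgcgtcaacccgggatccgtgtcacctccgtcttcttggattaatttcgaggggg
Gadd45g: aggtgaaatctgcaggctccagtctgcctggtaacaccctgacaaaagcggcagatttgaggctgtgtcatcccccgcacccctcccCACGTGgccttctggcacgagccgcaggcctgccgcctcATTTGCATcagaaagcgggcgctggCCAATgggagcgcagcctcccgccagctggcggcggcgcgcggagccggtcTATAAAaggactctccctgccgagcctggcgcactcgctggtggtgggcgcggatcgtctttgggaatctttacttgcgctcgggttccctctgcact

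Adjacent p53 decamers with at most 1 mismatch over their 20 bases stood in the windows of Cdkn1a (GAACATGTCTTGACTTGTTC) and Ccng1 (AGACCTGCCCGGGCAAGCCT). Such a pair was found in 24 of 33469 windows of rat genes (0.0717%). A single decamer, which the pair contains, was found in Cdkn1a, Ccng1 and Gadd45a, and in 7.98% of all windows. Both genes are known p53 targets, so these matches are background and not a result of the arrays. Among the GADD45 genes, ATTTGCAT stood in the windows of Gadd45a and Gadd45g (1.78% of all windows), CACGTG in those of Gadd45b and Gadd45g (6.42%), TATAAA in that of Gadd45g (14.2%) and CCAAT in all 3 (37.5%). TGACGTCA stood in the Btg2 window, at chr13:48087641-48087940 on the minus strand, and in 1.83% of all windows. The motifs were picked after these windows had been seen, and a match is not evidence of binding.

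Signal well above background was found on every array for 4 of the 9 genes, on 1 to 3 arrays for 3 and nowhere for 2. The 4 were Cdkn1a, Ccng1, Gadd45a and Sesn2, the 3 were Mdm2, Gadd45b and Gadd45g, and the 2 were Btg2 and Tp53inp1. The shares among all 16581 named genes were 35.2% for every array, 11.2% for 1 to 3 arrays and 53.7% for no array. Well above background is Agilent's call for a spot against its local background, a probe passed when more than 50% of its spots did, and a gene passed when any of its probes did. Mdm2 and Gadd45b joined the 4 when a probe only had to exceed the 99th percentile of the array's negative control spots, a rule that 44.4% of all named genes passed on all 4 arrays. That percentile, called the negative control limit below, lay between 5.07 and 5.96 intensity units on the 4 arrays. Intensities are the scanner software's processed signals, and a level is their log2 value relative to the array's own reference, the 75th percentile of the probes detected on all 4 arrays. That reference was 1431, 585, 767 and 831 units on the arrays of replicates 1 to 4. Each probe has its own brightness, so signals are compared between arrays and not between genes. In bulk RNA, fewer expressing cells and less RNA per cell cannot be told apart.

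**Figure D1:**
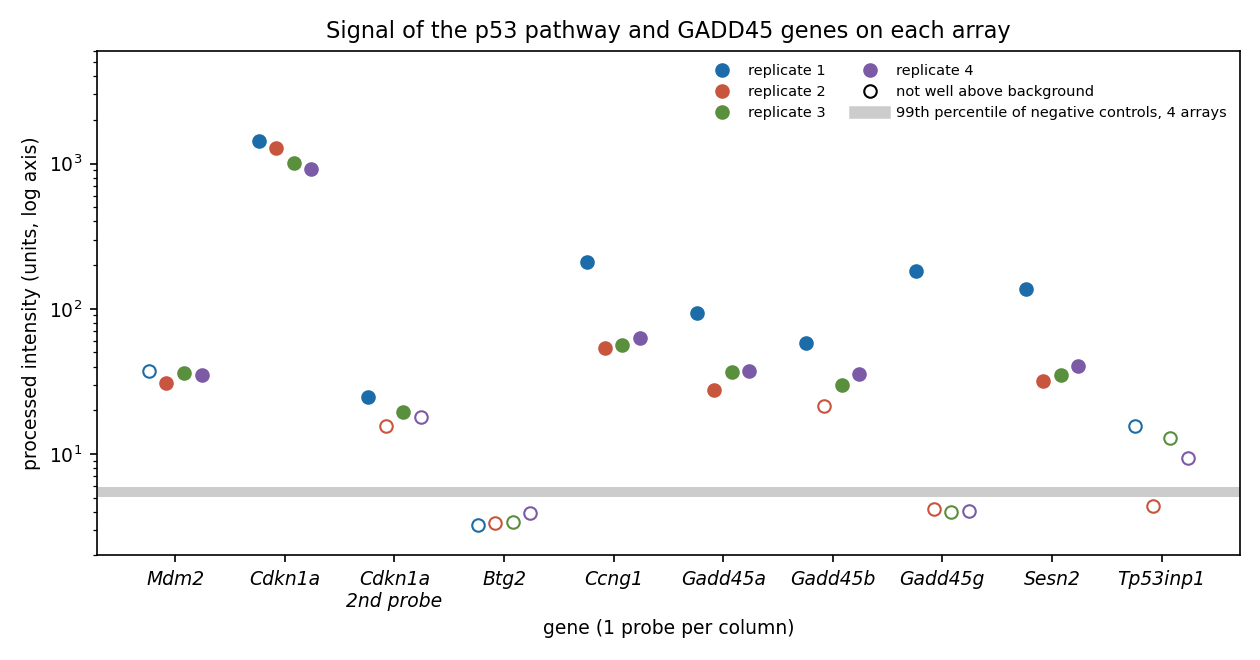
Processed intensity (log axis) of each probe of the 9 genes on the 4 arrays, with open points where the probe was not well above background. Btg2 lay below the grey band, which marks the negative control limit, on every array, and Gadd45g lay above it on replicate 1 alone, at 182 units.

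Mdm2 encodes the ubiquitin ligase that marks p53 for destruction. Its probe (A_44_P634946) gave 37.5, 30.7, 35.8 and 34.9 intensity units on the arrays of replicates 1 to 4. These unscaled means lay between 5.60 and 7.07 times the negative control limit. It was well above background on replicates 2, 3 and 4. On replicate 1 its 2 spots disagreed, at 76.6 and 18.4 units, and only the brighter was well above background. On the other 3 arrays the 2 spots were within 1.15-fold of each other. The scaled level was −5.25 on replicate 1, with −4.25, −4.42 and −4.57 on the other arrays in order.

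Cdkn1a encodes p21, which binds and inhibits the cyclin-dependent kinases that drive cells through G1 and S phase. Its brighter probe (A_44_P914438, 10 spots) gave a mean of 1432, 1291, 1012 and 923 intensity units on the arrays of replicates 1 to 4. On this scale replicate 1 was highest and replicate 4 lowest. Relative to each array's reference the order changed, with levels of 0.0013, 1.14, 0.40 and 0.15 on the arrays of replicates 1 to 4, a mean of 0.42 ± 0.51 (SD, n = 4). Replicate 2 was then highest and replicate 1 lowest, the references being 585 units for replicate 2 and 1431 for replicate 1. Replicate 2 lay above replicate 1 by 1.14 on the log2 scale, or 2.21-fold (limma moderated F over the 4 arrays, adjusted p = 2.91e-19 over 1594 probes).

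The error term of this test is the scatter among spots of the same probe, so its p concerns these 4 hybridisations, with 1 array per culture, and shows no difference between cultures or conditions. It called 37 of 871 named genes (4.25%) at an adjusted p below 0.05 with at least 2-fold between the highest and lowest array, and Cdkn1a was among them. Without a fold minimum it called 84.6% of these genes. Cdkn1a was the only one of the 9 genes that entered the test, which needs a probe with several spots that is detected on all 4 arrays. The spots of the probe had coefficients of variation of 10.4%, 7.79%, 5.69% and 7.01% on the arrays of replicates 1 to 4. The adjusted p ran from 3.35e-21 to 0.000239 over 13 settings. Those that changed only the fold minimum used the main fit, so their adjusted p was the same. The 2-fold call rested on replicates 1 and 2. Without replicate 2 the largest difference was 0.39 (replicate 3 over replicate 1), and without replicate 1 it was 0.99 (replicate 2 over replicate 4). Without scaling between arrays the order turned, with replicate 1 highest, replicate 4 lowest and 0.63 between them. Replicate 2 minus replicate 1 was then −0.15.

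**Figure D2:**
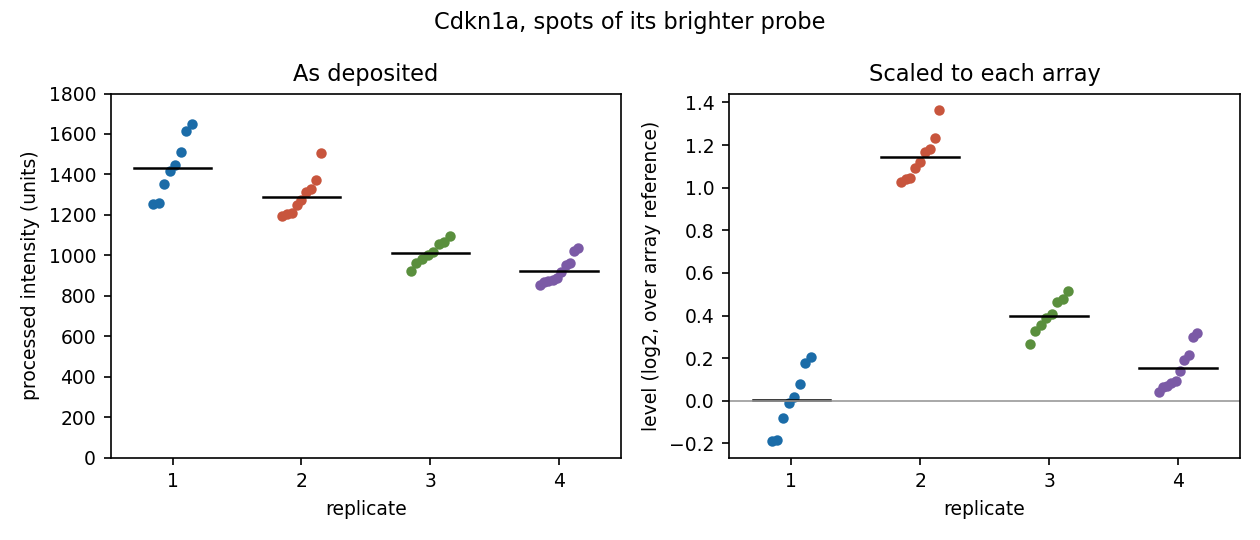
Spots of the brighter Cdkn1a probe on each array, as deposited intensity (left) and as log2 level relative to the array's reference (right), with outlier spots left out and lines at the mean of the log2 values. Replicate 1 is highest on the left at 1432 units, and replicate 2 is highest on the right at 1.14.

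The other Cdkn1a probe (A_44_P515275, 1 spot) gave 24.5, 15.5, 19.3 and 18.0 units on the arrays of replicates 1 to 4. It was well above background on replicates 1 and 3 and not on replicates 2 and 4, so the probes of this gene disagree in detection. Its scaled levels of −5.86, −5.24, −5.31 and −5.53 on replicates 1 to 4 are near background and their order is not read.

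Over 5822 other genes detected on all 4 arrays, the 3 whose deviations from their own mean were closest to those of Cdkn1a were Drap1, Adat3 and Tspan10. Their root mean square differences from Cdkn1a over the 4 arrays were 0.056, 0.062 and 0.063 on the log2 scale. Drap1, which encodes a corepressor of transcription, was at −1.49, −0.49, −1.20 and −1.46 on replicates 1 to 4. With 4 arrays of 1 group, such likeness is a description of these arrays only.

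Ccng1 encodes cyclin G1, a p53 target that acts back on p53 through Mdm2 and a phosphatase. Its probe (A_44_P235919, 1 spot) gave 209, 53.9, 56.5 and 63.1 intensity units on the arrays of replicates 1 to 4. Replicate 1 stood above the other 3, which lay close together. The scaled levels were −2.78, −3.44, −3.76 and −3.72 on replicates 1 to 4 (mean −3.43 ± 0.46, SD, n = 4), so the gap narrowed with scaling and remained.

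Btg2 encodes an antiproliferative protein that p53 can induce and that takes part in mRNA deadenylation. Its probe (A_64_P009803, 2 spots) gave 3.22, 3.32, 3.39 and 3.93 intensity units on replicates 1 to 4. All 4 values lay below the negative control limit, so Btg2 was not detectable on these arrays and may still be expressed.

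Gadd45a, the founding GADD45 gene, had 94.1, 27.5, 36.7 and 37.4 intensity units on the arrays of replicates 1 to 4 (probe A_44_P216395, 1 spot). All 4 were well above background, and replicate 1 again stood apart. The scaled levels were −3.93, −4.41, −4.38 and −4.47 (mean −4.30 ± 0.25, SD, n = 4).

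Gadd45b had 57.9, 21.3, 29.8 and 35.3 units on the arrays of replicates 1 to 4 (probe A_43_P16529, 2 spots). It was well above background on replicates 1, 3 and 4, and on replicate 2 only the spot at 24.9 units was, while the spot at 18.1 units was not. After scaling the 4 levels came together, at −4.63, −4.78, −4.68 and −4.56 with an SD of 0.095 (n = 4). With normexp background correction and an offset the SD was larger, at 0.28.

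Gadd45g had 182 units on replicate 1 and 4.20, 3.97 and 4.02 units on replicates 2 to 4 (probe A_64_P098255, 1 spot). It was well above background on replicate 1, and on the other 3 arrays it lay below the negative control limit. The replicate 1 spot was 16.6 wide as the scanner software found it, against a median of 26.7 over gene spots of that array, and 0.104% of them were as narrow or narrower. On replicates 2 to 4 the widths were 30.0, 25.8 and 22.7. The part of the spot's width in this signal was not tested. With the other 3 arrays below that limit, no size is given for the difference.

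Sesn2 encodes sestrin 2, a leucine sensor that restrains the growth kinase mTORC1 and is induced by p53 and by the amino acid stress factor ATF4. Its probe (A_44_P802511, 1 spot) gave 136, 31.7, 34.7 and 40.5 intensity units on the arrays of replicates 1 to 4. The pattern was like that of Ccng1, with replicate 1 above the rest. Scaled levels were −3.39, −4.21, −4.47 and −4.36 on replicates 1 to 4 (mean −4.11 ± 0.49, SD, n = 4).

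Tp53inp1, whose product acts with p53 in cell death and in autophagy, gave 15.5, 4.35, 12.8 and 9.30 units on the arrays of replicates 1 to 4 (probe A_44_P1086410, 1 spot). No array passed as well above background, although replicates 1, 3 and 4 lay above the negative control limit.

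The spread of the 4 genes detected on every array was set beside that of genes of like signal, those with a mean level within 0.5 on the log2 scale. Cdkn1a had an SD of 0.51 against a median of 0.18 over 600 such genes, 98.7% of which had a lower SD. Ccng1 had an SD of 0.46 against 0.28 over 993 genes, and Sesn2 0.49 against 0.30 over 974 genes. Gadd45a, at 0.25, was below the 0.30 of its 887 neighbours in signal. The median SD of all 5823 genes detected on every array was 0.23. These are descriptions of 4 arrays, with no test.

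Replicate 1 lay above the mean of the other 3 arrays by 0.86 for Ccng1, 0.95 for Sesn2 and 0.50 for Gadd45a on the scaled log2 scale, and below it for Cdkn1a, with a difference of −0.56. The median of this difference over genes of like signal was 0.19, 0.17, 0.18 and 0.016 for the same 4 genes in that order. Replicate 1 was also the array with the most named genes well above background, 7549, against 5978, 6534 and 6517 on replicates 2 to 4. The part of overall signal in the differences of single genes was not tested. Without replicate 1 the SD was 0.17 for Ccng1, 0.13 for Sesn2 and 0.046 for Gadd45a, and without replicate 2 that of Cdkn1a was 0.20. The array left out was the one farthest from the rest for that gene, so a lower SD follows from the choice. Without replicate 1 the SD of Cdkn1a was 0.51. Without replicate 2 it was 0.56 for Ccng1, 0.59 for Sesn2 and 0.29 for Gadd45a. After normexp background correction with an offset, which compresses dim signals, the SD was 0.24 for Ccng1, 0.15 for Sesn2, 0.12 for Gadd45a and 0.45 for Cdkn1a.

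**Figure D3:**
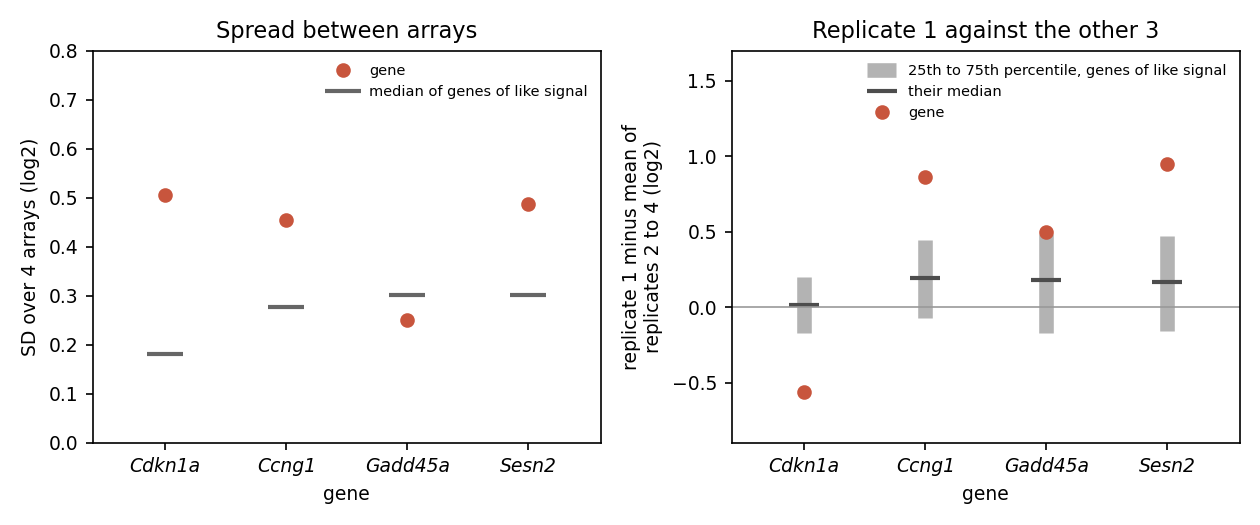
SD over the 4 arrays (left) and replicate 1 minus the mean of replicates 2 to 4 (right), both on the log2 scale, for the 4 genes detected on every array, with grey marks for genes of like signal. On the right, where the grey bars run over the middle 50% of such genes, Ccng1 and Sesn2 lie well above their bars at 0.86 and 0.95, Gadd45a at the top of its bar at 0.50, and Cdkn1a below at −0.56.

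Genes around the 9 were listed by role, and their detection is counted beside the 35.2% of all named genes. Of 11 measured regulators and cofactors of p53, 7 passed on every array, 2 on part of them and 2, Rchy1 and Tp53bp1, nowhere. Mdm4, the relative of Mdm2 that masks p53's activation domain, was at −2.67 on replicate 1, with −4.18, −4.01 and −3.60 on the other arrays in order. The replicate 1 value was highest, as it was for 6 of the 7 regulators detected on every array. In the lists below, that count was 5 of 12 for other p53 targets, 5 of 10 for genes tied to p21 and 0 of 3 for relatives. It was 4 of 8 for genes around sestrin 2, 3 of 3 for the GADD45 kinases and 3 of 10 for macrophage markers. The share over all genes detected on every array was not counted. The deubiquitinase gene Usp7 was at −2.57 ± 0.13, the ubiquitin ligase gene Cop1 at −2.42 ± 0.26 and the acetyltransferase gene Crebbp at −4.22 ± 0.46 (SD, n = 4 each).

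Of 25 other p53 targets measured, 12 passed on every array, 8 on part of them and 5 nowhere. Detected were the cell death genes Bax at 1.39 ± 0.19 and Bbc3, which encodes PUMA, at −1.42 ± 0.22, the nuclease gene Aen at −1.66 ± 0.10 and the kinase gene Plk3 at −2.36 ± 0.24 (SD, n = 4 each). Those 4 varied less than Cdkn1a did over the same arrays, as did 94.7% of the other genes detected on every array. Pmaip1, which encodes NOXA, Zmat3 and Plk2 were well above background on no array.

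Of 10 measured relatives of the 9 genes, 3 passed on every array, 2 on part of them and 5 nowhere. Btg1 was at 1.32, 0.35, 1.16 and 1.53 on replicates 1 to 4, lowest on replicate 2, while Btg3 and Btg4 passed nowhere. Tob2, of the same antiproliferative family, was at 0.055 ± 0.25 (SD, n = 4), and Tob1 was not detected. Cdkn1b, which encodes the related inhibitor p27, was at −4.02 on replicate 1, with −2.72, −2.20 and −2.68 on the other arrays in order. Replicate 1 was lowest for Cdkn1b after scaling.

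Of 15 measured genes of DNA damage sensing and signalling, 6 passed on every array, 7 on part of them and 2, Chek1 and Rad50, nowhere. The checkpoint clamp gene Hus1 was at −4.26 ± 0.34, the scaffold gene Mdc1 at −2.27 ± 0.12 and H2ax, whose histone is phosphorylated at breaks, at −2.84 ± 0.20 (SD, n = 4 each). The ubiquitin ligase gene Rnf168 was at −3.69 on replicate 1, with −5.05, −4.62 and −4.61 on the other arrays in order. Replicate 1 was highest for 4 of the 6 genes of this list detected on every array.

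Of 12 measured genes for proteins that p21 binds or inhibits (cyclins, kinases and Pcna), 10 passed on every array, 1 on part of them and 1, Cdk6, nowhere. Pcna, the sliding clamp of DNA replication, was at 0.052 ± 0.37, Cdk1 at 1.06 ± 0.38, Cdk2 at −2.41 ± 0.20 and Cdk4 at 0.37 ± 0.14 (SD, n = 4 each). All 10 measured proliferation markers were detected on all 4 arrays. Mki67 was at −1.64 on replicate 1, with −3.55, −3.26 and −3.15 on the other arrays in order. Cdkn1a was lowest on that array after scaling and highest on it without scaling. A relation between Cdkn1a and the proliferation markers was not tested. Bub1 was highest on replicate 1 too, at −3.14 against −4.39, −4.47 and −3.93, and so was Aurkb, at −3.03 against −4.15, −3.34 and −3.86, while Aurka varied little, at −0.22 ± 0.18 (SD, n = 4). Over all 10 markers, 6 were highest on replicate 1 and the other 4 on another array.

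Of 9 measured kinases on the route from GADD45 proteins to p38 and JNK, 3 passed on every array, 2 on part of them and 4 nowhere. The p38 kinase gene Mapk14 was at 0.76 ± 0.23, its activator Map2k3 at 0.34 ± 0.18 and the JNK2 gene Mapk9 at −3.67 ± 0.21 (SD, n = 4 each). Map2k6, Map2k7 and Mapk11 were not detected, and Map3k4, which GADD45 proteins bind, was well above background on replicate 1 alone (a gene chosen after its values were seen). Among all named genes, 854 were detected on replicate 1 alone, against 31, 55 and 21 on replicate 2, 3 or 4 alone.

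Of 10 measured genes around sestrin 2 (GATOR genes, Keap1, Sqstm1, Atf4 and Ddit3), 8 were detected on all 4 arrays and 2, Mios and Nprl3, on none. Of the GATOR complexes, which pass amino acid signals to mTORC1, Wdr24 was at −0.42 ± 0.20, Sec13 at −0.12 ± 0.13, Nprl2 at −2.69 ± 0.30 and Depdc5 at −4.64 ± 0.35 (SD, n = 4 each).

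**Figure D4:**
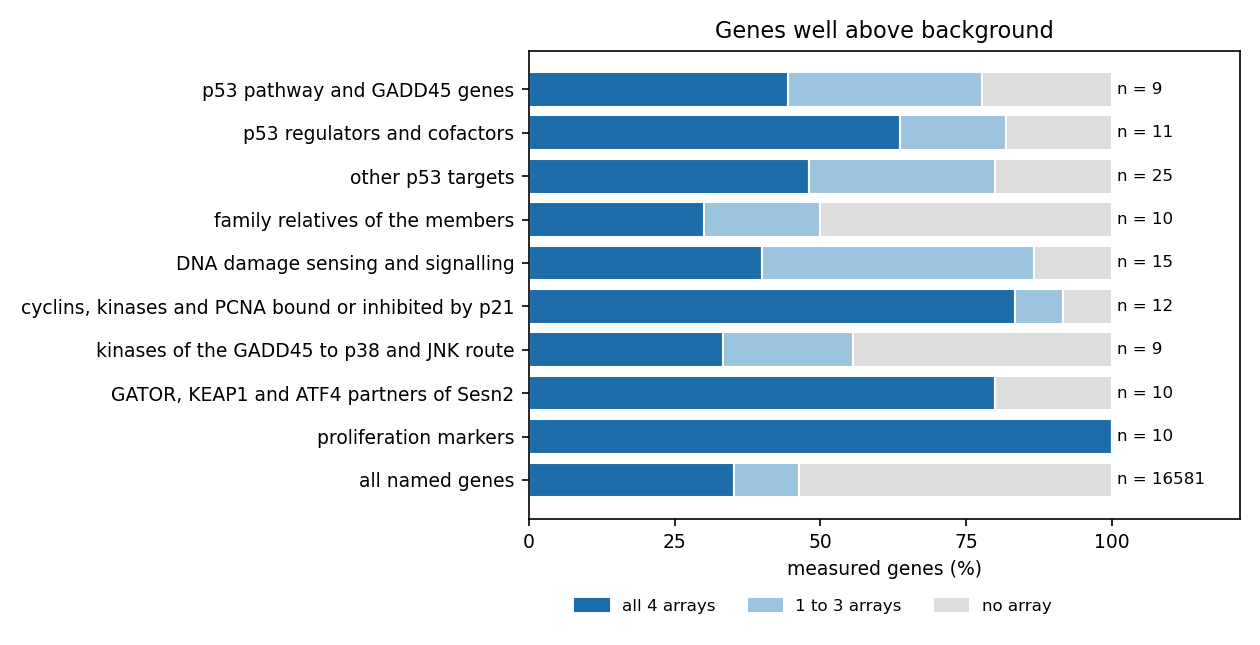
Share of the measured genes of each list that passed as well above background on every array, on 1 to 3 arrays or on no array, with n the number of measured genes. The bar of the 9 genes holds 4 detected on every array, that of the proliferation markers 10 of 10, and that of all named genes 35.2%.

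The label of the cells was checked against markers. Of 11 measured macrophage markers, 10, among them Cd68 and Csf1r, were detected on all 4 arrays and 1, Mrc1, on replicate 1 alone. None of 6 epithelial, 5 fibroblast, 4 lymphocyte and 3 neutrophil markers was detected on all 4 arrays, and of these only Col1a1 and S100a8 passed on any array. By the negative control limit, 1 lymphocyte marker, Cd3d, and 1 neutrophil marker, S100a8, passed on all 4 arrays.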

How the data were processed

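Processed intensity, median intensity and flags per spot were deposited for 4 arrays, made with Agilent Feature Extraction 11.0.1.1, per the submitters' processing notes and the file headers. Per the file headers, background and spatial trend had been removed from the deposited processed intensity inside each array and a lower bound set, with nothing done between arrays. Control spots and outlier spots (486 to 723 gene spots per array) were left out of intensities, and saturation was flagged at no gene spot. Each probe's spots were averaged as log2 values. Probes were named by accession from a GRCr8 gene table, and 21109 of 45598 (46.3%) matched. Where a gene had several probes, the brightest by its mean was used. The reference percentile was taken over probes detected on all arrays because they made up 22.9% of probes. Arrays were compared by lmFit and eBayes of limma 3.58.1 (R 4.3.3), adjusting p-values by Benjamini-Hochberg over 1594 probes, and Python 3.11.15 ran the other steps. On simulated data for this comparison of 1594 probes, the test called 100 of 100 probes shifted by 1.2, 100 of 100 shifted by 2 and 0 of 1394 unshifted. All simulated probes had the same normal spot scatter, with no difference between arrays beyond the shifts. Both shifts exceeded the 2-fold minimum. These counts check that the test runs as meant, and they cannot give its rate of false calls on the real arrays. The number of arrays, 4, limits the precision.

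The genes and lists were chosen with earlier results of these data known. Named from each list were the first 4 genes detected on all arrays, the first 3 detected on none and any detected on all arrays with an SD above 0.5, and, for Cdkn1a, the 3 genes closest to it. Alternatives were other detection rules, normexp (run on the median signal), quantile normalization, other scalings, the mean over probes, other fold minima, no filter on dim probes, array position as a block, and each replicate left out. Cyclic loess and no scaling were added after seeing the data.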

Additional observations from a re-analysis of the deposited data

Results flagged for a closer look

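For 44 probes and genes, the gap between 1 array and the next was taken as a part of the whole range. They did not include every gene named in the text. In 2 of them, 1 array lay far from the other 3, by a part that exceeded Dixon's 95% critical value for 4 samples. Chance gives about 1 in 20. Over all 131 measured genes of the lists around the 9, 7 exceeded it, 5 of them well above background on all 4 arrays. For Gadd45g the gap made up 0.879 of the range, with replicate 1 highest, but its other 3 arrays lay below the negative control limit, so the ratio rests on background values. The replicate 1 signal came from a single spot that was narrower than nearly all others on that array. For Gadd45a it made up 0.837 of the range, again with replicate 1 highest, on levels of −3.93 and −4.41, −4.38 and −4.47.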

How the results depend on the processing

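The count of 4 genes detected on all arrays was 4 to 6 under every other detection rule and with each replicate left out (5 without replicate 1, by adding Mdm2, and 5 without replicate 2, by adding Gadd45b). The median SD of these 4 genes was 0.47, and it was 0.19 after normexp, 0.85 without scaling, and 0.15 to 0.54 with each replicate left out. The count of the 9 genes called between arrays was 1, and it was 2 without the filter on dim probes, which adds Btg2 at background signal, 0 without scaling, and 0 to 1 with each replicate left out. The Cdkn1a difference between the highest and lowest array was 1.14, and it was 0.39 to 1.13 with each replicate left out. Without scaling it was 0.63, now for replicate 1 over replicate 4, and replicate 2 minus replicate 1 was −0.15. Cdkn1a kept its 2-fold call, with replicate 2 highest and replicate 1 lowest, after normexp, quantile normalization, cyclic loess and with array position as a block. The 37 named genes called between arrays were 19 after normexp, 224 with a 1.5-fold minimum, 737 with none, 369 without the filter on dim probes, 738 without scaling, and 10 to 35 with each replicate left out. The cause of these changes was not tested, beyond the fewer arrays or other filter that a setting itself brings. Signal over background limits Btg2, Tp53inp1 and Gadd45g. No paired analysis was possible because the samples form 1 group.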
